A study of Homo sapiens with 8 samples.

Results

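The KRAB zinc finger cluster of chromosome 19 is a run of genes at 19p12 to 19p13.11, of which 36 were listed by symbol, from ZNF101 to ZNF254. By Entrez gene ID, 35 of the 36 were found among the 27936 genes of the count tables, and ZNF66 is not analysed here. The cluster was measured in RNA from HEK293 cells, a line from human embryonic kidney, in 8 RNA-seq libraries of 4 groups with 2 libraries each. The KO sgRNA1 and KO sgRNA2 groups were labelled as TIP60 knock-outs with the genotype HEKg1/C9. The control sgRNA1 and control sgRNA2 groups had the genotype HEKg1. The product of KAT5, TIP60 is an acetyltransferase of histones and other proteins. Cells of all 4 groups were grown with 2 mM GlutaMAX and were given doxycycline at 1 µg/ml for 3 days to induce the single guide RNAs. The labels explain neither part of the genotype name, do not give the guide sequences, and do not say whether a line was 1 clone or whether the replicates were separate cultures, so the p-values below measure the spread between these libraries only.

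KRAB zinc finger proteins carry a KRAB domain at one end and an array of C2H2 zinc fingers at the other. The fingers bind DNA, in many cases sequences of transposable elements, and the KRAB domain recruits TRIM28 (KAP1), which brings in the histone H3 lysine 9 methyltransferase SETDB1, HP1 proteins and histone deacetylases. The family grew by repeated local duplication, the cluster at 19p12 is largely specific to primates, and zinc finger genes on chromosome 19 are themselves known to carry H3 lysine 9 trimethylation over their finger exons.

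The duplications are visible in sequence. RefSeq promoter entries (GRCh38.p14, the 250 bases before a start of the gene and the first bases after it) were found for 28 of the 36 genes. For ZNF254, ZNF730, ZNF43 and ZNF101 the start used lies inside the gene's RefSeq span, downstream of its outermost start. Of the 28, 26 held the 10-base sequence TCCAATCAGG, searched on both strands and found in all 26 in the direction of the gene. It was picked as the sequence of that length held by the most of these promoters, so its share in the cluster is high by choice. The share was 92.9%, against 9.3% of 182 promoters of other ZNF genes on chromosome 19 and 0.39% of all 27305 promoters. The sequence contains the letters of a CCAAT box, which 100.0% of the cluster's promoters and 35.7% of all promoters held. Its first base lay 30 to 88 bases upstream of the start used, with a median of 58. ZNF93, ZNF737, ZNF626, ZNF43, ZNF208, ZNF724 and ZNF675 held 2 copies. For them the copy found first from the upstream end was measured, and the windows of ZNF737 and ZNF626 show that copy. ZNF493 and ZNF257 lacked the sequence. The windows below, 5′ to 3′ on the gene's strand, are shown for genes with large changes in KO cells (ZNF681, ZNF429, ZNF737, ZNF486, ZNF626), for ZNF91, the paralog with the best-known target, and for ZNF14, the one gene called lower. Capitals mark TCCAATCAGG.
ZNF681, chr19:23758925-23758964, minus strand: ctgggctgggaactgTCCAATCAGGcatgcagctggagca
ZNF429, chr19:21505557-21505596, plus strand: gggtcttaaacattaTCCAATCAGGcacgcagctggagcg
ZNF737, chr19:20565844-20565883, minus strand: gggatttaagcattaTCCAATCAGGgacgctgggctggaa
ZNF486, chr19:20167141-20167180, plus strand: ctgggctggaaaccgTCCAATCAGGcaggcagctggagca
ZNF626, chr19:20661634-20661673, minus strand: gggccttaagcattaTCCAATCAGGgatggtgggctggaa
ZNF91, chr19:23395506-23395545, minus strand: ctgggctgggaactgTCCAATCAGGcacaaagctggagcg
ZNF14, chr19:19733142-19733181, minus strand: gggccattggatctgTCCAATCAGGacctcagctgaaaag

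The gene called lower and the gene with the clearest difference between the control groups thus share this element. Their 250 bases upstream of the start are given for comparison, with capitals for TCCAATCAGG, for CTGTCACTCA, which was in 22 of the 28 promoters (78.6%, against 0.38% of all promoters), and for GGCTTCCGGG, which was in 19 of the 28 (67.9%, against 0.47% of all promoters). ZNF14 has no copy of the last of these in its window. All of these sequences were picked for being frequent in the cluster's own promoters.
ZNF681, chr19:23758892-23759141, minus strand: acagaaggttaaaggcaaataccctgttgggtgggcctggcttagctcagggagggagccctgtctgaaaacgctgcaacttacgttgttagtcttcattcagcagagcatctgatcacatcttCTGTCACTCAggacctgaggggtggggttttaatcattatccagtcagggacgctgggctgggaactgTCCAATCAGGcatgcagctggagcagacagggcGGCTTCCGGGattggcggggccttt
ZNF14, chr19:19733113-19733362, minus strand: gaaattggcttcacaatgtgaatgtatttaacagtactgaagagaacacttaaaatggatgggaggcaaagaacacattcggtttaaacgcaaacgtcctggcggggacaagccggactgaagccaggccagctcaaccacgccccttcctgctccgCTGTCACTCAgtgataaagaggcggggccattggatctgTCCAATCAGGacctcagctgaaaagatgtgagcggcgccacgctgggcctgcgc
Between pairs of the 28 genes, the upstream windows were 46.9 to 92.0% identical in a global alignment, with a median of 76.1%. The ETS core CCGGAAG was in 71.4% of the cluster's promoters, 40.1% of those of other ZNF genes on chromosome 19 and 10.7% of all promoters, and the GC box GGGCGG in 75.0% of the cluster's, 68.7% of the other ZNF genes' and 44.6% of all promoters. The E-box CACGTG and the cAMP response element TGACGTCA, which 7.4% and 2.0% of all promoters held, were in 0 of the 28. These matches describe letters in a window, and binding there was not measured.

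In the coding sequences of GENCODE v29, the number of C2H2 fingers matched in the open reading frame was 0 to 36, with a median of 13. ZNF208 had 36, ZNF729 had 34 and ZNF91 had 31, while the short open reading frame of ZNF738 had 0. The 14 bases found most often in the coding sequences were TGTGAAGAATGTGG, the codons around the first pair of zinc-binding cysteines of a finger, which were in 33 of the 36 genes and in 0.45% of all protein-coding genes. Such repeats limit the counting of reads. ZNF98 and ZNF492 share whole finger repeats, of which 1 is shown because an 80-base read inside it matches both genes (capitals, those 14 bases).
Finger repeat of ZNF98 and ZNF492: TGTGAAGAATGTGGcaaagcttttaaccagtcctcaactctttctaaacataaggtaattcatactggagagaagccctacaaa
Of the 80-base stretches of their transcripts, the length of a read, 29.37% of those of ZNF98 and 23.19% of those of ZNF492 also occurred in another gene, mostly in each other. For ZNF724 it was 42.53%, shared with AC092329.3, whose exons overlap it on the same strand over 44.76% of its exonic bases. The values of these 3 genes are therefore uncertain. For the other 33 genes the share was at most 7.57%.

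Counts per library summed to 13325415 to 18841774 in KO libraries and to 3723992 to 14601552 in control libraries. KAT5 had 18.0 to 20.2 CPM (counts scaled to the library total with TMM factors) in KO libraries and 44.5 to 49.0 CPM in control libraries. The lowest total was that of control sgRNA1 replicate 2, which also stood apart in the cluster. It was the highest control library for 24 of the 27 cluster genes tested, against 27.9% of all genes tested. The neurofilament gene NEFM, typical of HEK293, had 12100 to 13200 CPM in KO libraries and 7540 to 9120 CPM in control libraries, and PAX2 at most 1.31 CPM in any library. VIM, another HEK293 marker, had 246 to 264 CPM in KO libraries and 285 to 342 CPM in control libraries. The summed level of 5 endothelium markers was 2.85 to 3.86 CPM in KO libraries and 0.0 to 0.404 CPM in control libraries, mostly KDR, and that of 6 leukocyte markers 8.12 to 8.94 CPM in KO and 4.31 to 5.98 CPM in control libraries, mostly CD68. PTPRC, CD3E, PECAM1, ALB, DCN and LUM stayed below 0.6 CPM in each library. Of the fibroblast markers, COL1A1 had 15.9 to 20.1 CPM in KO and 12.4 to 20.8 CPM in control libraries. COL3A1 had 5.94 to 8.61 CPM in KO and 4.85 to 6.9 CPM in control libraries. Of the epithelial markers, EPCAM had 12.7 to 15.8 CPM in KO and 16.8 to 20.9 CPM in control libraries. CDH1 had 14.1 to 15.8 CPM in KO and 10.4 to 13.9 CPM in control libraries. The part of other cells in the results below was not tested. Fewer cells that express a gene and less of its RNA per cell cannot be told apart in these bulk samples.

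The filter on low counts kept 27 of the 35 genes, among 14455 of all genes. ZNF208 passed it through KO libraries alone, since 1 control library alone reached the 0.716 CPM that the filter asks for in 2, and a gene kept in this way had to differ. Levels per kilobase of the authors' gene length covered a wide range, with means of 0.135 to 16.1 CPM per kilobase in KO libraries and 0.0525 to 14.7 in control libraries. ZNF254 was the highest in KO libraries, at 16.1 CPM per kilobase, with 14.5 in control libraries. ZNF91 followed at 15.0 in KO libraries and 14.7 in control libraries, then ZNF675 at 13.1 in KO and 13.0 in control libraries, and ZNF714 at 12.6 in KO and 13.0 in control libraries. In control libraries the ranges of these 4 genes overlapped, so their order there is not firm. ZNF208 was the lowest of those tested. A value of 10.4 in KO libraries and 9.07 in control libraries for ZNF724 rests on a gene length of 568 bases in the tables.

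The 8 genes below the filter had few reads. Over the 4 libraries of an arm, ZNF730 had 32 counts in KO libraries and 18 in control libraries, and ZNF257 had 29 in KO and 10 in control libraries. ZNF99 had 23 counts in KO and 10 in control libraries, ZNF728 had 20 in KO and 8 in control libraries, ZNF676 had 19 in KO and 7 in control libraries, and ZNF729 had 12 in KO and 7 in control libraries. ZNF100 had 5 counts in KO libraries and 2 in control libraries, a CPM ratio of 1.65 with an exact 95% interval of 0.271 to 17.4. ZNF85 had 4 counts in KO libraries and 1 in control libraries, a ratio of 2.65 with an interval of 0.262 to 130. All 8 ratios, 1.13 to 2.65, had exact intervals that include 1, so a difference was not detectable at this depth. These intervals hold counting error alone, as the reads carry no molecular identifiers.

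**Figure D1:**
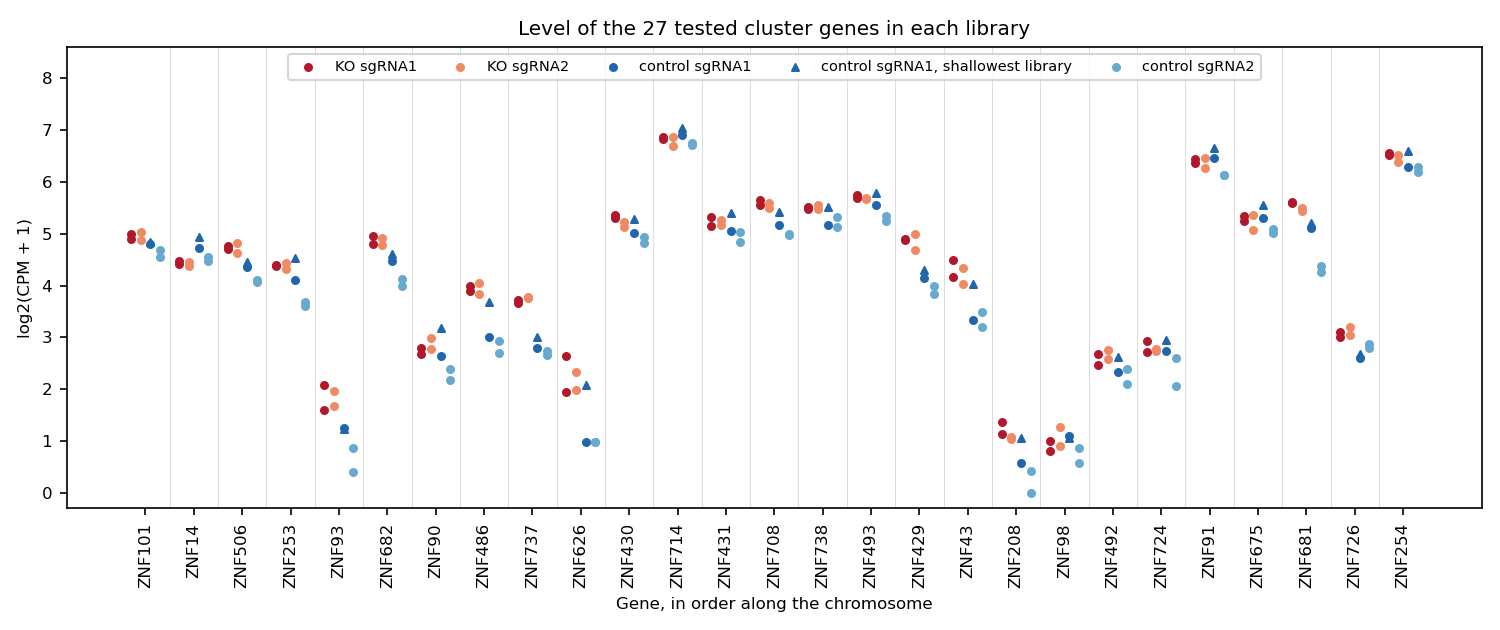
Level of each of the 27 tested cluster genes in each of the 8 libraries, as log2(CPM + 1), with genes in order along the chromosome. Red and orange points are KO sgRNA1 and KO sgRNA2 libraries, dark and light blue are control sgRNA1 and control sgRNA2 libraries, and the triangle is control sgRNA1 replicate 2, the highest control library for 24 of the 27 genes.

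Over both guides, most of the tested cluster genes were higher in KO cells. Of the 27, 20 were called higher and 1 lower, against 31.8% of all 14455 genes called higher and 31.2% called lower (edgeR's quasi-likelihood test with Benjamini-Hochberg adjustment, adjusted p under 0.05). The count higher was 19 without ZNF208, which the filter kept for its difference, and 19 without ZNF681, known beforehand to differ between control groups. The median log2 fold change of those past the filter was 0.38 (0.37 without ZNF208), against 0.01 over all genes tested, and 25 of the 27 estimates were positive. Among the 11416 genes within the cluster's range of mean abundance, 32.7% were called higher. Most changes were small. Leaving out ZNF208, 4 of 26 genes (ZNF93, ZNF486, ZNF737 and ZNF626) were called and at least 2-fold higher, against 8.38% of all genes, and the fold was 0.854 for ZNF14, the lowest, and 3.09 for ZNF626, the highest, with a median of 1.29.

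ZNF681, a gene with 11 fingers, had 47.7 and 47.2 CPM in KO sgRNA1 libraries and 43.9 and 42.5 CPM in KO sgRNA2 libraries, against 33.3 and 35.8 CPM in control sgRNA1 libraries and 18.1 and 19.7 CPM in control sgRNA2 libraries. All KO libraries lay above all control libraries, and the control groups stood apart from each other. Its log2 fold change was 0.85 ± 0.098 (SE). ZNF681 was known beforehand to differ between the control groups, so its changes against them are given without p. The RefSeq record of ZNF681 overlaps that of RPSA2 on the other strand at its start, and the strand setting of the counting is not given in the sources used here.

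ZNF429, with 15 fingers, had 28.9 and 28.4 CPM in KO sgRNA1 libraries and 30.8 and 24.7 CPM in KO sgRNA2 libraries, against 16.6 and 18.6 CPM in control sgRNA1 libraries and 13.3 and 14.8 CPM in control sgRNA2 libraries. The groups did not overlap, and the log2 fold change of 0.88 ± 0.088 had the smallest adjusted p of the cluster (2.92e-08). ZNF737 had 11.7 and 12.2 CPM in KO sgRNA1 libraries and 12.5 and 12.7 CPM in KO sgRNA2 libraries, against 5.98 and 7.0 CPM in control sgRNA1 libraries and 5.31 and 5.7 CPM in control sgRNA2 libraries. Its 4 KO libraries were alike and all far above the controls, with a log2 fold change of 1.08 ± 0.11 (adjusted p = 3.01e-08).

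ZNF486 had 14.8 and 13.9 CPM in KO sgRNA1 libraries and 15.6 and 13.2 CPM in KO sgRNA2 libraries, against 7.03 and 11.9 CPM in control sgRNA1 libraries and 5.45 and 6.59 CPM in control sgRNA2 libraries. All KO libraries were above the controls, of which control sgRNA1 replicate 2 was the nearest, and the log2 fold change was 1.06 ± 0.13 (adjusted p = 7.38e-07). ZNF43, with 19 fingers, had 16.9 and 21.6 CPM in KO sgRNA1 libraries and 19.2 and 15.3 CPM in KO sgRNA2 libraries, against 9.05 and 15.4 CPM in control sgRNA1 libraries and 8.21 and 10.3 CPM in control sgRNA2 libraries. Here the same control library reached the lowest KO library, so the groups overlapped, and the log2 fold change was 0.88 ± 0.13 (adjusted p = 4.73e-06).

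Among genes of higher level, ZNF708 had 49.0 and 46.1 CPM in KO sgRNA1 libraries and 46.9 and 44.2 CPM in KO sgRNA2 libraries, against 34.7 and 41.8 CPM in control sgRNA1 libraries and 30.5 and 31.0 CPM in control sgRNA2 libraries. The groups did not overlap, and the log2 fold change was 0.48 ± 0.064 (adjusted p = 1.63e-06). ZNF682 had 26.9 and 29.9 CPM in KO sgRNA1 libraries and 26.5 and 29.1 CPM in KO sgRNA2 libraries, against 21.2 and 23.4 CPM in control sgRNA1 libraries and 16.4 and 15.0 CPM in control sgRNA2 libraries. Its groups did not overlap either, at a log2 fold change of 0.61 ± 0.088 (adjusted p = 4.14e-06). ZNF506 had 26.0 and 25.0 CPM in KO sgRNA1 libraries and 27.3 and 23.8 CPM in KO sgRNA2 libraries, against 19.6 and 21.0 CPM in control sgRNA1 libraries and 16.2 and 15.8 CPM in control sgRNA2 libraries. Again every KO library was above every control library, with a log2 fold change of 0.53 ± 0.082 (adjusted p = 1.06e-05).

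The largest fold changes were those of genes of low level. ZNF93, a repressor of L1 retrotransposons in primates, had 3.21 and 2.01 CPM in KO sgRNA1 libraries and 2.93 and 2.19 CPM in KO sgRNA2 libraries, against 1.37 and 1.35 CPM in control sgRNA1 libraries and 0.828 and 0.326 CPM in control sgRNA2 libraries. The groups did not overlap, and the log2 fold change was 1.53 ± 0.3 (adjusted p = 0.000161). ZNF626 had 2.86 and 5.2 CPM in KO sgRNA1 libraries and 4.03 and 2.98 CPM in KO sgRNA2 libraries, against 0.97 and 3.23 CPM in control sgRNA1 libraries and 0.966 and 0.977 CPM in control sgRNA2 libraries. Control sgRNA1 replicate 2 lay among the KO libraries while the other 3 controls were alike, and the log2 fold change was 1.63 ± 0.29 (adjusted p = 5.31e-05). ZNF208 had 1.58 and 1.19 CPM in KO sgRNA1 libraries and 1.1 and 1.06 CPM in KO sgRNA2 libraries, against 0.485 and 1.08 CPM in control sgRNA1 libraries and 0.345 and 0.0 CPM in control sgRNA2 libraries. The groups overlapped through the same control library. With 80 counts over the KO libraries and 15 over the control libraries, the CPM ratio was 3.53. Since the filter kept ZNF208 through KO libraries, this ratio is a description, and no interval or p is given for it.

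ZNF14 was the 1 gene of the cluster called lower. It had 20.3 and 21.2 CPM in KO sgRNA1 libraries and 20.8 and 19.8 CPM in KO sgRNA2 libraries, against 25.5 and 29.6 CPM in control sgRNA1 libraries and 22.5 and 21.3 CPM in control sgRNA2 libraries. All KO libraries lay below all control libraries, by a narrow margin to control sgRNA2, and the log2 fold change was -0.23 ± 0.077 (adjusted p = 0.0135).

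ZNF254 and ZNF253 were also called higher. ZNF254 had 90.4 and 93.0 CPM in KO sgRNA1 libraries and 90.7 and 82.8 CPM in KO sgRNA2 libraries, against 77.5 and 96.2 CPM in control sgRNA1 libraries and 76.5 and 71.7 CPM in control sgRNA2 libraries. The groups overlapped, and the log2 fold change of 0.18 ± 0.057 (adjusted p = 0.01) lost its call without any one of KO sgRNA2 replicate 1, control sgRNA1 replicate 1 and control sgRNA2 replicate 2, at 0.13, 0.14 and 0.14. ZNF253 had 19.8 and 20.1 CPM in KO sgRNA1 libraries and 20.7 and 18.9 CPM in KO sgRNA2 libraries, against 16.3 and 22.1 CPM in control sgRNA1 libraries and 11.8 and 11.1 CPM in control sgRNA2 libraries. Its KO libraries were alike and the control groups were not, and the log2 fold change was 0.49 ± 0.11 (adjusted p = 0.000736). ZNF101, ZNF430, ZNF431, ZNF738, ZNF493, ZNF492 and ZNF726 were called higher with log2 fold changes of 0.19 to 0.39 and adjusted p of 0.000995 to 0.0356.

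The 6 genes not called were ZNF90, ZNF714, ZNF98, ZNF724, ZNF91 and ZNF675, with log2 fold changes of -0.02 to 0.36 and adjusted p of 0.0788 to 0.726. ZNF714 had 113 and 115 CPM in KO sgRNA1 libraries and 115 and 102 CPM in KO sgRNA2 libraries, against 118 and 130 CPM in control sgRNA1 libraries and 107 and 104 CPM in control sgRNA2 libraries. The groups overlapped, and the log2 fold change was -0.02 ± 0.051. ZNF91, a repressor of SVA retrotransposons in primates, had 81.4 and 85.9 CPM in KO sgRNA1 libraries and 87.2 and 76.2 CPM in KO sgRNA2 libraries, against 86.9 and 100.0 CPM in control sgRNA1 libraries and 69.1 and 69.3 CPM in control sgRNA2 libraries. Both KO group means lay between those of the control groups, and the log2 fold change was 0.07 ± 0.068.

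Across the 27 genes, the log2 fold change and the level per kilobase in control libraries had a Spearman correlation of -0.76, a description over genes that are not independent, of measures that share the control libraries. Without ZNF208 it was -0.72. The 13 other genes below 5 CPM per kilobase had a median log2 fold change of 0.61 and a range of 0.26 to 1.63, and the 13 genes above a median of 0.25 and a range of -0.23 to 0.88. The correlation with position along the chromosome was -0.17 and that with the number of fingers 0.04.

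**Figure D2:**
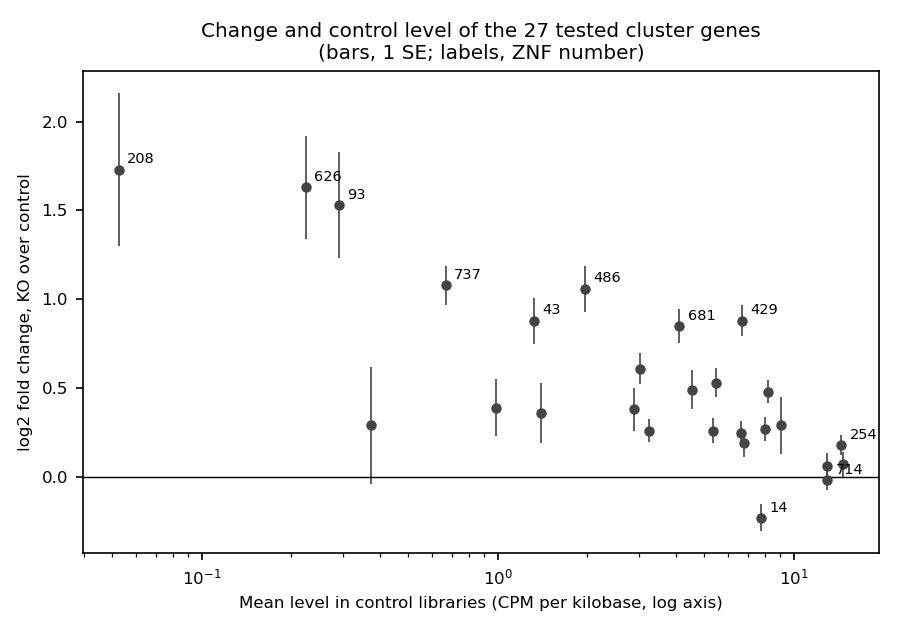
Log2 fold change of KO over control over both guides, with bars of 1 SE, against the mean level in control libraries in CPM per kilobase on a log axis, for the 27 tested cluster genes. ZNF626 and ZNF93, at the low end, have fold changes above 1.5 on the log2 scale, as does ZNF208, which the filter kept through KO libraries alone, and ZNF14 lies below 0.

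Not all of these differences separated single libraries. For 10 genes (ZNF101, ZNF506, ZNF93, ZNF682, ZNF486, ZNF737, ZNF708, ZNF429, ZNF681 and ZNF726) every KO library lay above every control library, against 27.3% of all genes tested, and for ZNF14 every KO library lay below, against 25.6%. Without control sgRNA1 replicate 2, the count above was 21 of 27, against 30.5% of all genes, with ZNF208, kept by the filter through KO libraries alone, among the 21. The summed level of the 35 genes was 822, 833, 834 and 766 CPM in KO libraries, against 707, 837, 614 and 602 CPM in control libraries. The sums of KO libraries thus exceeded those of 3 control libraries, and the shallowest control library had the highest sum of all 8. That library was also the highest in the sum of 157 other ZNF genes on the long arm of chromosome 19, with 7590 CPM, against 5960 to 6350 CPM in the other 3 control libraries and 6110 to 6460 CPM in KO libraries. What sets it apart was not tested, and without it 21 cluster genes were called higher and 1 lower, against 30.9% and 32.0% of all genes, at a median of 0.44.

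**Figure D3:**
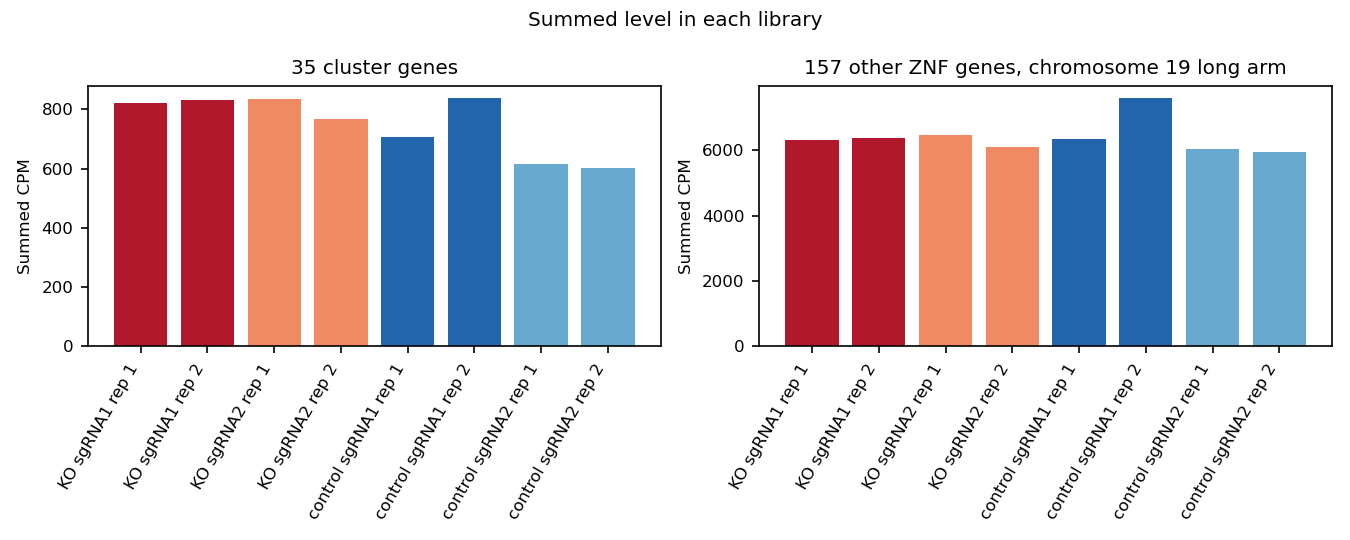
Summed CPM in each of the 8 libraries of the 35 cluster genes (left) and of 157 other ZNF genes on the long arm of chromosome 19 (right), KO libraries in red and orange, control libraries in blue, with axes from 0. Cluster sums are 766 to 834 CPM in KO libraries and 602 to 837 CPM in control libraries, and control sgRNA1 replicate 2 is the highest bar on both sides.

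Within sgRNA1, 10 of 27 genes (9 of 26 without ZNF681) were called higher and 1 lower, against 24.3% and 23.3% of all genes, with a median log2 fold change of 0.23. This rests on control sgRNA1 replicate 1: without it, which leaves the shallowest library as the lone control, 3 of 27 genes were called higher, below the 16.8% of all genes, and the median was 0.05 with 14 estimates positive and 13 negative. Without control sgRNA1 replicate 2, 12 were called higher, against 22.8% of all genes, at a median of 0.33. The genes called higher were ZNF681, ZNF429, ZNF737, ZNF486, ZNF708, ZNF682, ZNF43, ZNF506, ZNF626 and ZNF726. Log2 fold changes ran up to 1.36 ± 0.43 for ZNF626 (adjusted p = 0.0141). ZNF737 had 0.93 ± 0.16 (adjusted p = 0.000117), ZNF429 had 0.74 ± 0.13 (adjusted p = 0.000129) and ZNF681 had 0.48 ± 0.086. ZNF14 was lower, at -0.37 ± 0.11 (adjusted p = 0.00856), a call lost without KO sgRNA1 replicate 1 (-0.34). The calls of ZNF682 (0.29) and ZNF626 (0.88) were lost without KO sgRNA1 replicate 2, and that of ZNF506 (0.31) without KO sgRNA1 replicate 1. Without control sgRNA1 replicate 1, ZNF486, ZNF682, ZNF506 and ZNF626 each had a log2 fold change of 0.28, ZNF43 one of 0.32 and ZNF708 one of 0.19, none called.

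Within sgRNA2, 21 of 27 genes (20 of 26 without ZNF208, and 20 of 26 without ZNF681) were called higher by edgeR and 0 lower, against 25.7% and 25.4% of all genes, with a median of 0.57. The 1 negative estimate was that of ZNF14, at -0.11 ± 0.098 (adjusted p = 0.371), and DESeq2 and limma-voom also called 0 lower. ZNF737 had a log2 fold change of 1.2 ± 0.14 (adjusted p = 1.57e-06), and ZNF93 one of 2.1 ± 0.4 (adjusted p = 0.000293). That of ZNF681 was 1.2 ± 0.084, a description, since it rests on the control sgRNA2 libraries in which the gene was known to differ. ZNF208 had 37 counts in KO sgRNA2 libraries and 5 in control sgRNA2 libraries, of which 1 had 0, and its fitted log2 fold change was 1.61 to 6.86 when 1 library was left out, so no fold is given. ZNF91 had 0.24 ± 0.077 (adjusted p = 0.0129), a call lost without KO sgRNA2 replicate 1 or without either control sgRNA2 replicate, and in sgRNA1 -0.13 ± 0.081 (adjusted p = 0.19). The count higher was 14 without KO sgRNA2 replicate 1, against 20.3% of all genes, and 14 without control sgRNA2 replicate 2, against 19.3%.

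The same 9 genes were called higher with both guides: ZNF681, ZNF429, ZNF737, ZNF486, ZNF708, ZNF682, ZNF43, ZNF506 and ZNF626. Of all genes, 24.3% were called higher within sgRNA1 and 25.7% within sgRNA2. The share of all genes called with both was not computed, so whether 9 exceeds it is not known. The 9 include ZNF681, known beforehand to differ between the control groups. Another 12 were called within sgRNA2 and not within sgRNA1, namely ZNF101, ZNF208 (kept by the filter through KO libraries alone), ZNF253, ZNF254, ZNF430, ZNF431, ZNF492, ZNF493, ZNF738, ZNF90, ZNF91 and ZNF93. Of these, ZNF93 was near the threshold within sgRNA1 (0.96, edgeR adjusted p = 0.0535) and was called there under 6 of 16 alternatives, with adjusted p of 0.022 to 0.416. ZNF726 and ZNF14 were called within sgRNA1 and not within sgRNA2, and ZNF714, ZNF98, ZNF724 and ZNF675 with neither guide. Across the 27 genes, the log2 fold changes with sgRNA1 and sgRNA2, which share no library, had a Spearman correlation of 0.78, given as a description.

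**Figure D4:**
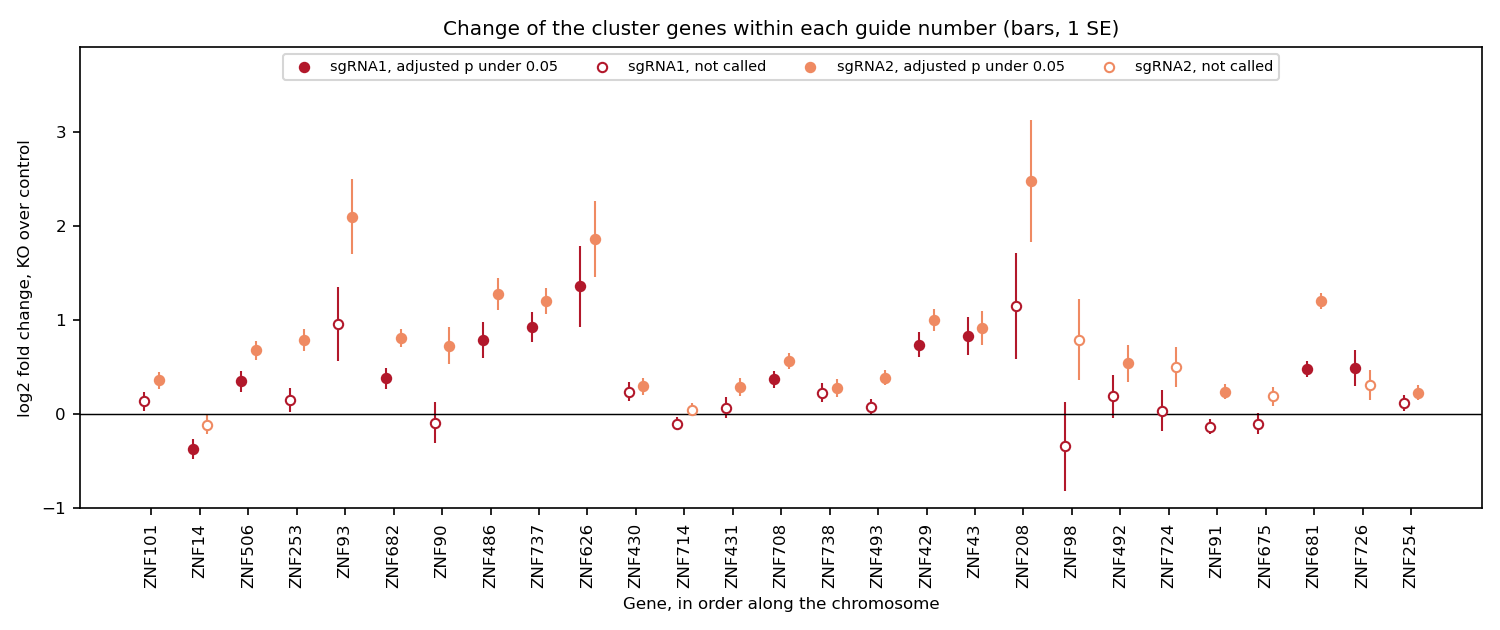
Log2 fold change of KO over control within sgRNA1 (red) and within sgRNA2 (orange) for the 27 tested cluster genes in order along the chromosome, with bars of 1 SE. Filled points have an adjusted p under 0.05, 10 higher and 1 lower with sgRNA1 and 21 higher with sgRNA2, and the orange point is the higher of the pair for 26 of the 27 genes.

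Whether the change differed between the guides was tested itself. The change with sgRNA2 was the larger for 26 of 27 genes, ZNF726 being the exception, with a median difference of 0.31 on the log2 scale. By edgeR's quasi-likelihood test 0 genes of the cluster were called, against 0.0% of all genes, and DESeq2 and limma-voom called 0. Apart from ZNF681, 6 of 26 genes had an unadjusted p under 0.05 (ZNF506, ZNF253, ZNF682, ZNF90, ZNF493 and ZNF91), against 4.41% of all genes. ZNF681 was known beforehand to differ between the control groups, on which this difference rests, so its values are a description: 0.72 ± 0.12, with 0.79 without control sgRNA1 replicate 1 and 0.68 without control sgRNA1 replicate 2. ZNF253 had a difference of 0.65 ± 0.18 and ZNF91 one of 0.38 ± 0.11, neither called. The median difference was 0.45 with 26 of 27 positive without control sgRNA1 replicate 1, and 0.21 with 21 of 27 positive without control sgRNA1 replicate 2.

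The guides were then compared within each arm. In KO cells the estimates for sgRNA2 against sgRNA1 lay around 0, with a median log2 difference of -0.03 and a range of -0.37 to 0.4. By edgeR 0 of 27 genes were called, against 0.0% of all genes, and 0 had an unadjusted p under 0.05, and DESeq2 and limma-voom called 0. In control cells, 26 of the 27 estimates were lower with sgRNA2 than with sgRNA1, ZNF726 being the exception, with a median of -0.32. Leaving out ZNF681, for which the comparison was chosen, 0 of 26 genes were called by edgeR, DESeq2 or limma-voom, where edgeR called 0.0208% of all genes lower and 0.00692% higher, and 15 of 26 had an edgeR unadjusted p under 0.05, against 8.25% of all genes. This comparison shares the control libraries with the changes above.

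ZNF681 was the reason for choosing this comparison, so its values describe the control groups and test nothing. It had 18.1 and 19.7 CPM in control sgRNA2 libraries, against 33.3 and 35.8 CPM in control sgRNA1 libraries, a log2 difference of -0.85 ± 0.098. Both replicates of each control group were alike. In KO cells it had 43.9 and 42.5 CPM with sgRNA2, against 47.7 and 47.2 CPM with sgRNA1, a log2 difference of -0.13 ± 0.073 (adjusted p = 0.993). ZNF253 differed between the control groups by -0.65 ± 0.14 (adjusted p = 0.253) and ZNF91 by -0.41 ± 0.083 (adjusted p = 0.213). Neither was called, although both were without control sgRNA1 replicate 1, at -0.94 and -0.52. The median over the cluster was -0.49 with 26 of 27 estimates negative without control sgRNA1 replicate 1, and -0.23 with 23 of 27 negative without control sgRNA1 replicate 2.

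**Figure D5:**
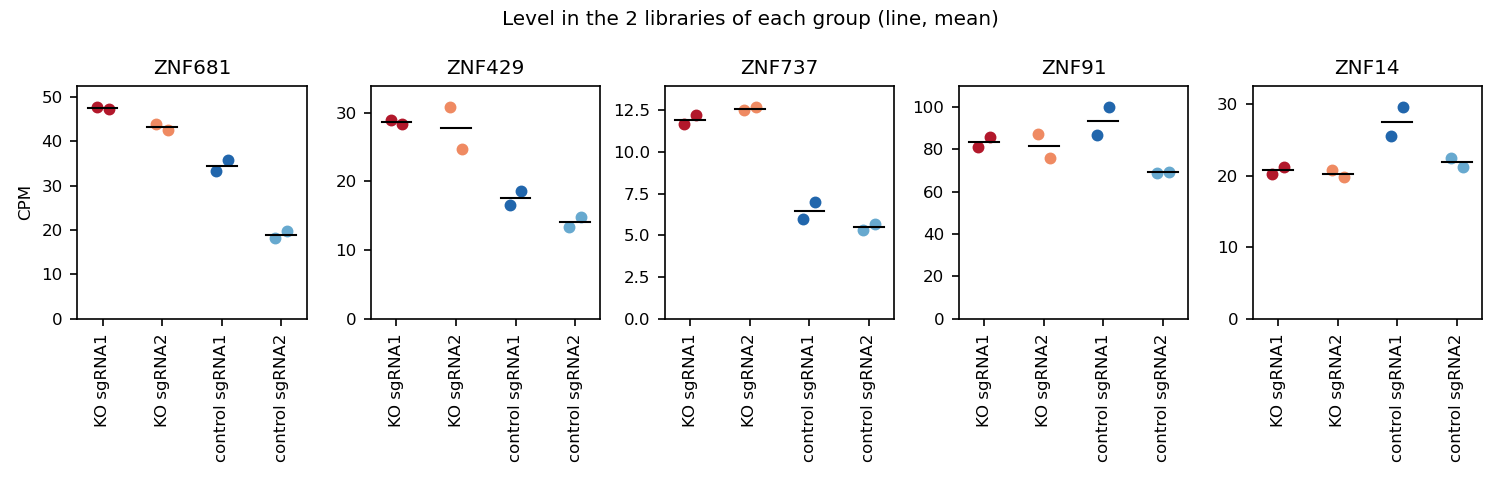
CPM of ZNF681, ZNF429, ZNF737, ZNF91 and ZNF14 in the 2 libraries of each group (points) with the group mean (line), on axes from 0. ZNF681 has 18.1 and 19.7 CPM in control sgRNA2 against 33.3 and 35.8 CPM in control sgRNA1, both KO means of ZNF91 lie between those of the control groups, and ZNF14 is lowest in KO libraries.

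Zinc finger genes elsewhere gave the background of the family. Of 38 tested ZNF genes on the short arm of chromosome 19 outside the cluster, 13 were called higher and 4 lower over both guides, with a median log2 fold change of 0.19. Of 151 on the long arm, 41 were called higher and 38 lower, with a median of 0.01. Of 209 on other chromosomes, 58 were called higher and 68 lower, with a median of -0.02. Over all genes tested, 31.8% were called higher and 31.2% lower. The cluster's own median of 0.38 and its 74.1% called higher are set beside these as a description. They include ZNF208, kept by the filter through KO libraries alone, and ZNF681, known beforehand to differ between the control groups. The median log2 difference of control sgRNA2 from control sgRNA1 was -0.09 for the short arm outside the cluster, with 11 of 38 estimates positive. On other chromosomes it was -0.05, with 78 of 209 positive. For the genes of the long arm it was -0.17, with 128 of 151 estimates negative. It was -0.32 without control sgRNA1 replicate 1 (136 of 153 negative) and -0.09 without control sgRNA1 replicate 2 (102 of 153 negative).

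Between the first and the last gene of the cluster (chromosome 19, 19668153 to 24129968 on GRCh38.p14, 4.46 Mb), 18 other genes had a row in the tables and 3 passed the filter. The long noncoding RNA LINC00663 was higher, at 4.22 ± 0.3 CPM in KO libraries and 2.47 ± 0.596 CPM in control libraries (SD, n = 4 each; log2 fold change 0.87 ± 0.18, edgeR adjusted p = 0.000302). RPSA2, a ribosomal protein SA paralog next to ZNF681, was lower, at 644 ± 35.7 CPM in KO libraries and 757 ± 59.3 CPM in control libraries (log2 fold change -0.24 ± 0.056, edgeR adjusted p = 0.000983). IPO5P1, an importin pseudogene, was higher, at 46.1 ± 1.04 CPM in KO libraries and 41.4 ± 4.42 CPM in control libraries (log2 fold change 0.18 ± 0.063, edgeR adjusted p = 0.015).

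A list of 18 tested genes held the KRAB corepressor complex, through which KRAB proteins act, and chromatin factors beside it. Of these, 7 were called higher and 8 lower over both guides, with a median of -0.03, where 31.8% of all genes were called higher and 31.2% lower. UHRF1, a factor beside the complex that binds hemimethylated DNA, had the smallest p, at 88.9 ± 4.24 CPM in KO libraries and 137 ± 5.61 CPM in control libraries (log2 fold change -0.62 ± 0.045). CHD3, a remodeller of the NuRD complex, fell by 0.55 ± 0.042 on the log2 scale, CBX3, which encodes an HP1 protein, by 0.48 ± 0.043, and the deacetylase gene HDAC1 by 0.44 ± 0.044. TRIM28, the scaffold itself, was slightly higher, at 2770 ± 88.1 CPM in KO libraries and 2490 ± 48.0 CPM in control libraries (log2 fold change 0.15 ± 0.05), and so was SETDB1 (0.16 ± 0.046). All 6 were called, with edgeR adjusted p of at most 0.0111.

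Of 7 genes of the HUSH complex, which silences transposable elements with SETDB1, and its partners, 1 was called higher and 2 lower, with a median of -0.09. Of all genes, 31.8% were called higher and 31.2% lower. The called ones were MORC2, an ATPase (0.2 ± 0.043), TASOR2 (-0.13 ± 0.047) and TASOR, a core subunit (-0.11 ± 0.044). A further list held 12 tested genes, of H3 lysine 9 methyltransferases and demethylases and of WIZ, which is neither. Of these, 3 were called higher and 5 lower, with a median of -0.01, against the same shares of all genes. The demethylase gene KDM3A had 136 ± 6.97 CPM in KO libraries and 82.1 ± 3.46 CPM in control libraries, a log2 fold change of 0.72 ± 0.049, and KDM4C, another demethylase gene, rose by 0.47 ± 0.064. PHF2, a demethylase gene, fell by 0.45 ± 0.049, and SUV39H2, a methyltransferase gene, by 0.38 ± 0.058.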

How the data were processed

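RNA of 8 HEK293 samples was made into stranded mRNA libraries and sequenced as 80 bp paired reads, per the labels' protocols. The authors deposited unnormalised counts for each gene, a table for every library, made with featureCounts on hg38 per the submitters' processing notes. Sources used here name no aligner, annotation, strand setting or filter, so reads shared between paralogs may have been counted or dropped. Of 28395 entries, 459 without a gene ID were left out (0.0284 to 0.0425% of counts). Positions are from RefSeq on GRCh38.p14, and exon overlaps and coding sequences from GENCODE v29.

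Low genes were dropped with filterByExpr and the 4 groups (counts of at least 10, totals of at least 15). All tests used edgeR 4.0.16 (R 4.3.3; quasi-likelihood F test, TMM) fitted over all 14455 genes, with Benjamini-Hochberg adjustment over all of them. The test over both guides had a term for the guide (5 residual degrees of freedom), and the other comparisons were contrasts of the 4 group means (4 residual degrees of freedom). The biological coefficient of variation was 0.0473. In simulated data for 14221 genes, the test over both guides recovered 181 of 200 changed genes and called 6 unchanged ones. Levels are CPM scaled by TMM factors, with mean ± SD over libraries; log2 fold changes have their SE. Promoter motifs were searched on both strands.

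The members and all lists were chosen with earlier results of these data known. All members are accounted for; values in every library are given for ZNF681, the 10 with the smallest p over both guides, the 3 with the smallest p for each guide comparison, the 3 of highest level and the extreme changes. From the other lists, the genes of smallest p were named, with TRIM28 and SETDB1 chosen after their values were seen. Alternatives were DESeq2 1.42.0 and its size factors, limma-voom (limma 3.58.1), library totals alone, other filters, a replicate block, thinning to the smallest library and leaving out each library.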

Additional observations from a re-analysis of the deposited data

Results flagged for a closer look

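Of 54 groups of 4 libraries checked for 1 library far from the other 3 (27 cluster genes, KO and control arms), 3 had one by Dixon's criterion, where chance gives about 1 in 20, or 2.7. ZNF626 had 3.23 CPM in control sgRNA1 replicate 2, against 0.966 to 0.977 CPM in the other control libraries. ZNF714 had 102 CPM in KO sgRNA2 replicate 2, against 113 to 115 CPM in the other KO libraries. ZNF493 had 52.3 CPM in KO sgRNA1 replicate 1, against 50.1 to 50.3 CPM in the other KO libraries.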

How the results depend on the processing

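Under the alternatives, 54 fold changes were followed, those over both guides and within each guide for the 16 genes described by library and, for ZNF253, ZNF681 and ZNF91, the guide difference and the control difference. Of the values, 845 kept their direction and their side of the threshold, 45 lost the call, 14 gained one and 8, none of them called, changed sign. The last were ZNF253 within sgRNA1 after thinning to the smallest library (-0.06) and without control sgRNA1 replicate 1 (-0.14), ZNF254 within sgRNA1 without that replicate (-0.07), ZNF91 over both guides without KO sgRNA2 replicate 1 (-0.02), ZNF714 over both guides with library totals alone (0.01) and without KO sgRNA2 replicate 2 (0.0), and ZNF714 within sgRNA2 after thinning (-0.02) and without KO sgRNA2 replicate 1 (-0.05). Leaving out each library in turn, these ranged from -0.14 to 0.28 for ZNF253 and -0.07 to 0.23 for ZNF254 within sgRNA1, from -0.02 to 0.11 for ZNF91 and -0.08 to 0.0 for ZNF714 over both guides, and from -0.05 to 0.13 for ZNF714 within sgRNA2. Thinning left fewer reads and 24 genes past the filter (not ZNF208, ZNF93 and ZNF98), of which 9 were called higher and 0 lower over both guides, against 20 and 1 (15.6% of all genes higher), with 1 higher and 0 lower within sgRNA1 (7.95% higher), 6 higher within sgRNA2 (8.53%), and 0 between the control groups, where ZNF681 had -0.77. DESeq2 called 6 of 27 higher within sgRNA1, against 10 by edgeR, and it called 17.6% of all genes higher there. With no filter on low counts, 1 gene, ZNF681, was called for the guide difference (0.72), where 0.0328% of all genes were called higher. Between the control groups 3 (ZNF681, ZNF253 and ZNF91) were called lower, against 0.267% of all genes. The cause was not tested. Leaving out 1 library gave 17 to 21 higher and 1 lower over both guides, 3 to 12 higher and 0 to 1 lower within sgRNA1, 14 to 22 higher within sgRNA2, 0 to 1 for the guide difference and 1 to 3 lower between the control groups; where it leaves 1 library in a group, that library is assumed to vary like the others. The count of genes with every KO library above the controls, 21 without control sgRNA1 replicate 2, was added after seeing the data. Same-numbered replicates did not deviate together (correlations of -0.224 to 0.0446), so they share only a number. A replicate block gave 20 higher and 1 lower over both guides, against 31.2% and 30.6% of all genes. Within sgRNA1 it gave 10 and 1, against 23.3% and 22.4%. Within sgRNA2 it gave 21 and 0, against 25.0% and 24.4%. The genes called were those called without the block, except within sgRNA1. There ZNF93 gained a call (1.06, edgeR adjusted p = 0.022) and ZNF726 lost its own. The numbers of control sgRNA1 were also crossed, a pairing tried after seeing the correlations. The counts in the same order were then 20 and 1, 10 and 1, and 21 and 0. The shares of all genes were 31.9% and 31.5%, 24.2% and 23.6%, and 26.1% and 25.9%. With 15 to 80 counts per arm, ZNF208 is limited by depth, as are the 8 genes below the filter.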

Other observations

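Among the tested cluster genes with a promoter entry that holds TCCAATCAGG, 7 held 2 copies (ZNF93, ZNF737, ZNF626, ZNF43, ZNF208, ZNF724 and ZNF675) and 15 held 1. ZNF208 passed the filter through KO libraries alone and is left out of the changes given next. Log2 fold changes over both guides were 1.63 (ZNF626), 1.53 (ZNF93), 1.08 (ZNF737), 0.88 (ZNF43), 0.29 (ZNF724) and 0.06 (ZNF675) for the others with 2 copies. For the 15 they were -0.23 to 1.06, with a median of 0.36. The median control level was 0.668 CPM per kilobase for the 7, ZNF208 included, and 6.7 for the 15. These are descriptions of groups that were formed after the values were seen, and no test was made. The 10 bases AGAGACAAAG, or their reverse complement, were in 19 of the 28 cluster promoters and in 0 of 182 promoters of other ZNF genes on chromosome 19. They too were picked for being frequent in the cluster's own promoters. The number of CpG per promoter entry had a median of 10 in the cluster, 22 for the other ZNF genes on the chromosome and 14 over all entries.

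Control sgRNA1 replicate 2 was the highest control library for 112 of 151 tested ZNF genes on the long arm of chromosome 19, 20 of 38 on the short arm outside the cluster and 101 of 209 on other chromosomes, against 27.9% of all genes tested.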
